A study of Homo sapiens with 6 samples.

Results

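The 8 genes described here carry the handling of acid, lactate and bicarbonate at the cell surface and in the cytosol: the carbonic anhydrases CA2, CA9 and CA12, the lactate carriers SLC16A1 and SLC16A3 with their chaperone BSG, and the bicarbonate carriers SLC4A2 and SLC4A7. They were chosen by name for their function, with earlier results of these data known, and are 8 of the 58219 gene identifiers in the files. All 8 passed the low-count filter that left 14239 genes to test. RNA came from SNU-387, a human cell line from a high-grade pleomorphic hepatocellular carcinoma. One group of 3 libraries stably expressed a short hairpin RNA against the SRC-family tyrosine kinase gene YES1 (shYES1), and the other group of 3 stably expressed a hairpin with no target (shNT). Both groups share the cell line and a stable hairpin and differ, per the labels, only in the hairpin. Whether the libraries of a group came from separate cultures is not stated in the labels, and each p-value then covers only library-to-library spread, which may be technical.

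Carbonic anhydrases interconvert carbon dioxide and water with bicarbonate and a proton, CA2 in the cytosol and CA9 and CA12 with their catalytic side facing out of the cell. Cells that make much lactate export it together with a proton through SLC16A1 (MCT1) and SLC16A3 (MCT4), both of which need BSG (basigin, CD147) to reach the membrane. SLC4A7 brings sodium and bicarbonate into the cell and so raises its pH, while SLC4A2 exchanges bicarbonate for chloride and so lowers it. CA9 is a textbook target of the hypoxia-inducible factor HIF, and CA12 and SLC16A3 are also known as HIF-responsive.

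The gene reads per library ranged between 11290889 and 18944148 in shYES1 and between 12825919 and 16388822 in shNT. YES1 itself averaged 44.1 ± 1.70 CPM (reads per library size, with sizes corrected by TMM for differences in RNA composition) in shYES1 and 179.5 ± 1.65 CPM in shNT (SD, n = 3 each), with a log2 fold change of -2.02 (SE 0.037, edgeR adjusted p = 7.93e-40), lower in 3 of 3 shYES1 libraries. Of the markers of liver and epithelial cells checked, the hepatocyte genes ALB and TTR had at most 1 read in any library, SERPINA1 averaged 16.9 CPM in shYES1 and 19.1 CPM in shNT, and the epithelial keratin KRT8 averaged 721 CPM in shYES1 and 494 CPM in shNT. In bulk RNA, fewer cells that express a gene and less RNA per cell cannot be told apart.

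The promoter windows of CA9, CA12 and SLC16A3 are printed first because these 3 genes, all known as HIF-responsive, parted in the data: CA9 fell sharply, CA12 fell mildly and SLC16A3 rose. Each run is a RefSeq window on GRCh38, 250 bases before to 50 after an annotated start, read 5′ to 3′ on the gene's strand, with the core letters of HIF-binding elements, ACGTG and GCGTG on either strand, in capitals (CACGT and CACGC are the same letters on the other strand). The CA9 window lies at chr9:35673678-35673977 (plus strand), the CA12 window at chr15:63381797-63382096 (minus strand) and the SLC16A3 window, window 2 of 5 listed for that gene, at chr17:82228792-82229091 (plus strand).
CA9: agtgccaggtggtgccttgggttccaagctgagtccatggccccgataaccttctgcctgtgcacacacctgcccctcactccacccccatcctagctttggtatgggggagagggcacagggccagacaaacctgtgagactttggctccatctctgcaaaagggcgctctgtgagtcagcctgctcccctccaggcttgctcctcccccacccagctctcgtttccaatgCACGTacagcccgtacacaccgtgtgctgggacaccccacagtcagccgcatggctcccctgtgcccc
CA12: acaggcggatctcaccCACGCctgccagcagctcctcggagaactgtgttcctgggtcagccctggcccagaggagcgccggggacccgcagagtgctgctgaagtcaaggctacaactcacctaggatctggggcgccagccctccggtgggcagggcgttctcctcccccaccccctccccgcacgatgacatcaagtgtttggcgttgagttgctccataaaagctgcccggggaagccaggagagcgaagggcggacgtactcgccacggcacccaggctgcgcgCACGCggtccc
SLC16A3: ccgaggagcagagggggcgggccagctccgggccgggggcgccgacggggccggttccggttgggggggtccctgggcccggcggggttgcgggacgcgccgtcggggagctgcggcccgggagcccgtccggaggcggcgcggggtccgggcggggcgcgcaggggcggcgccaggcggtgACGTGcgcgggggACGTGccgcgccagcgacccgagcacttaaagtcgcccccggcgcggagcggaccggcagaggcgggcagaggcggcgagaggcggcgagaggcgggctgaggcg

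The CA9 window holds 1 ACGTG, on the strand opposite the gene, the match beginning 18 bases before the start. The SLC16A3 window holds 2, on the gene's own strand, 68 and 55 bases before its start, and was printed for them, since windows 1, 3, 4 and 5 of that gene hold none. The CA12 window holds no ACGTG but has 2 of GCGTG on the strand opposite the gene. These letters are common: ACGTG is present in 21.4% and GCGTG in 36.5% of the 35116 promoter windows of the same length, so a match is a description of the sequence and not of binding. The shares are per window, and a gene with several windows has more places for a match. Windows were found for 6 of the 8 genes, the others being CA2 and SLC16A1. Among the other genes, SLC4A2, which rose, has ACGTG in windows 3 and 4 of its 4, which overlap each other. BSG, which did not pass the test, has ACGTG in window 2 of 2, and SLC4A7, which fell, in neither of its 2. GCGTG is present in all 4 windows of SLC4A2, in window 2 of BSG and in window 1 of SLC4A7. The CA9 window and the printed SLC16A3 window hold no GCGTG, but windows 4 and 5 of SLC16A3 do.

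In shYES1 cells 5 of the 8 genes were lower and 2 were higher than in shNT cells, and BSG did not pass the test. The fall was steep for CA9 (10.9-fold) and CA2 (6.56-fold), about 2.06-fold for SLC4A7, and mild for SLC16A1 (1.56-fold) and CA12 (1.32-fold). SLC4A2 was 1.29-fold and SLC16A3 1.22-fold higher. The median log2 fold change of the 8 genes was -0.52, against -0.00469 over all genes tested. Much of the transcriptome moved in this comparison: at an edgeR adjusted p under 0.05, 65.3% of the 14239 tested genes were called, 32.5% higher and 32.8% lower in shYES1. A count of 7 called among 8 is therefore read against that 65.3%, and the size of the changes separates these genes more than the calls do. At least 2-fold lower and called were 3 of the 8 (CA9, CA2, SLC4A7), against 6.22% of all genes, and at least 2-fold higher were 0 of 8, against 2.5%. The 3 libraries of each group did not overlap for 7 of the 8 genes, against 67.9% of all genes. Since the 8 genes were chosen with earlier results of these data known, the shares set beside all genes are a description only.

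**Figure D1:**
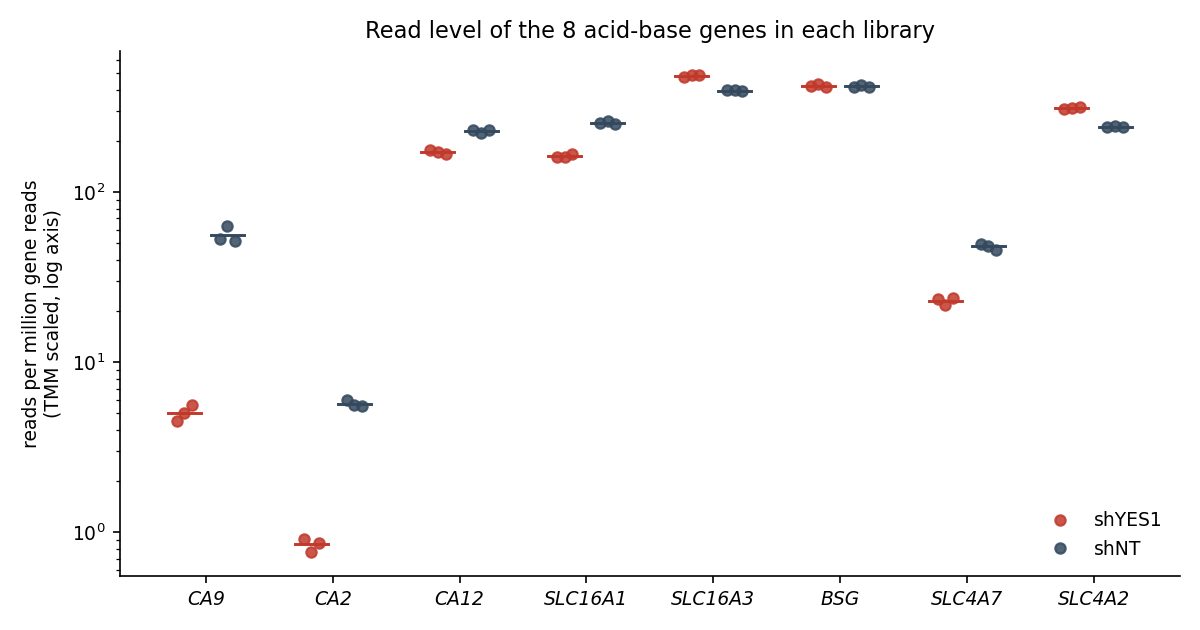
Read level of the 8 genes in each of the 6 libraries, in CPM on a log axis, with a point per library and a line at the mean of the group. CA9 and CA2 lie far lower in shYES1 than in shNT, SLC16A3 and SLC4A2 lie slightly higher, and the points of BSG overlap.

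CA9 (ENSG00000107159.12, GRCh38 chromosome 9, 35673856 to 35681159, plus strand), the outward-facing anhydrase of hypoxic tumours, had 74, 59 and 110 reads in the shYES1 libraries and 653, 832 and 818 reads in the shNT libraries. Scaled for depth these were 4.50, 5.05 and 5.62 CPM in shYES1 and 52.8, 63.0 and 51.8 CPM in shNT. Every shYES1 library lay far below every shNT library, and shNT library 2 was the highest. Its log2 fold change, -3.45 (SE 0.0896, edgeR adjusted p = 3.17e-28), ranked 14 from the bottom of the 14239 tested genes. With any one library left out the log2 fold change stayed between -3.55 and -3.36.

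CA2 (ENSG00000104267.9, chromosome 8, 85463852 to 85481493, plus strand), the fast cytosolic anhydrase, was sparse in both groups, with 15, 9 and 17 reads in shYES1 and 74, 74 and 87 reads in shNT. This corresponds to 0.913, 0.770 and 0.868 CPM in shYES1 and 5.98, 5.60 and 5.51 CPM in shNT, again without overlap. Its log2 fold change of -2.71 had the widest error of the 8 (SE 0.198, edgeR adjusted p = 1.18e-16), as its shYES1 reads were few, and it ranked 31 from the bottom of the tested genes.

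CA12 (ENSG00000074410.13, chromosome 15, 63321378 to 63382161, minus strand), the other outward-facing enzyme, changed far less than CA9. It had 176.8, 172 and 168 CPM in shYES1 and 231, 224 and 230.4 CPM in shNT, so the groups were separate but close. On the log2 scale it fell by 0.41 (SE 0.0294, edgeR adjusted p = 9.24e-17).

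The ratio of CA9 to CA12 reads within a library does not depend on how libraries are scaled. It was 0.0256, 0.0295 and 0.0335 in the shYES1 libraries and 0.228, 0.282 and 0.225 in the shNT libraries. On the log2 scale the mean was -5.09 ± 0.193 in shYES1 and -2.04 ± 0.181 in shNT (SD, n = 3 each), a difference of -3.05, many times the spread. A two-sided exact permutation test over the libraries gave p = 0.1, the smallest value that 3 against 3 allows.

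**Figure D2:**
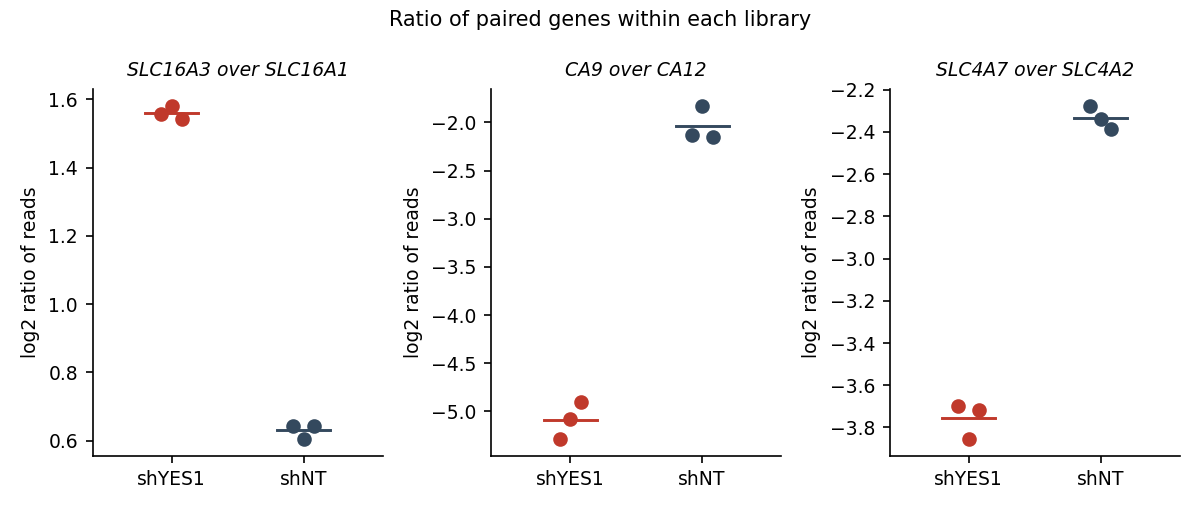
The log2 ratio of reads of 2 genes within each library, with a point per library and a line at the group mean, shYES1 on the left in each panel. SLC16A3 over SLC16A1 is higher in shYES1, and CA9 over CA12 and SLC4A7 over SLC4A2 are lower. In each panel the difference between the groups is many times the spread within them, and the vertical axes differ between panels and do not start at 0.

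Per kilobase of annotated exon (RPKM, from the union of all annotated exons, which makes genes with long rare exons look lower), CA9 and CA12 RNA were about level in shNT cells, at 33.4 ± 3.70 RPKM for CA9 and 31.2 ± 0.573 RPKM for CA12. Their shNT libraries overlapped on this scale. In shYES1 cells CA9 stood at 3.03 ± 0.334 RPKM and CA12 at 23.6 ± 0.576 RPKM, with no overlap. Among all 15 listed carbonic anhydrase genes, CA9 made up 10.1% ± 1.18 of the summed RPKM in shYES1 and 43.0% ± 2.33 in shNT, and CA12 made up 78.4% ± 1.35 in shYES1 and 40.4% ± 2.87 in shNT (SD, n = 3 each). The summed level was 30.1 ± 0.220 RPKM in shYES1 and 77.6 ± 4.27 RPKM in shNT.

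The remaining carbonic anhydrase genes moved the same way where they could be tested. Of the other 12 listed, 3 passed the filter and all 3 were lower in shYES1, with a median log2 fold change of -0.83, beside 32.8% lower among all genes. CA3 and CA13 start at 85373436 and 85220587 on chromosome 8, near CA2, so the falls of these neighbours may not be separate observations. CA3, a cytosolic form known from muscle and fat, had the larger change, at 3.28 ± 0.101 CPM in shYES1 and 17.5 ± 2.70 CPM in shNT (log2 fold change -2.41). The mitochondrial CA5B averaged 8.53 ± 0.741 CPM in shYES1 and 15.1 ± 0.863 CPM in shNT (-0.83), though its exons overlap the pseudogene CA5BP1 on the same strand, which makes its level uncertain. The cytosolic CA13 averaged 3.05 ± 0.691 CPM in shYES1 and 4.61 ± 0.420 CPM in shNT (-0.54, edgeR adjusted p = 0.00347). The 9 untested genes had at most 3 reads in any library, and 7 of them had none at all.

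**Figure D3:**
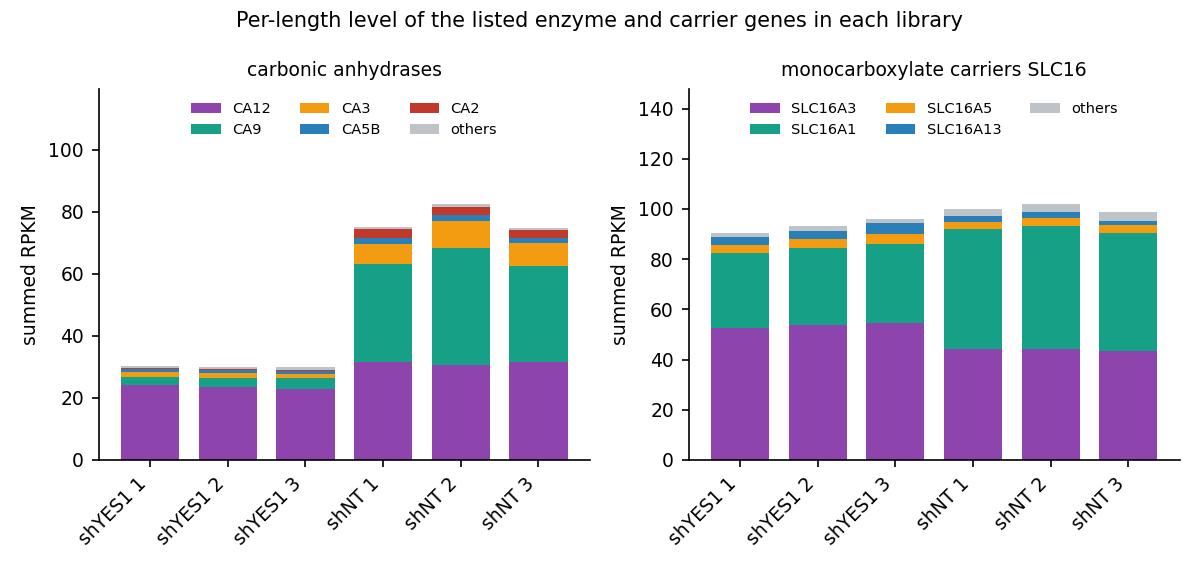
Summed RPKM of the 15 listed carbonic anhydrase genes and of the 14 SLC16 genes in each library, stacked by gene, shYES1 libraries on the left. The carbonic anhydrase stack is lower in the shYES1 libraries mainly through the CA9 segment, while the SLC16 stack keeps a similar height with a larger SLC16A3 and a smaller SLC16A1 segment.

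The 2 lactate carriers moved in opposite directions. SLC16A1 (ENSG00000155380.11, chromosome 1, 112911847 to 112957013, minus strand), the widely expressed carrier that moves lactate either way, had 160, 162 and 168 CPM in shYES1 and 254, 261 and 249.8 CPM in shNT. All 3 shYES1 libraries lay below all 3 shNT libraries, with a log2 fold change of -0.64 (SE 0.0294, edgeR adjusted p = 5.38e-24). SLC16A3 (ENSG00000141526.16, chromosome 17, 82228397 to 82261129, plus strand), the exporter typical of glycolytic cells, had 472, 484 and 489.7 CPM in shYES1 and 396, 397 and 389.7 CPM in shNT. Its groups were also separate, in the other direction, with a log2 fold change of 0.29 (SE 0.0251, edgeR adjusted p = 4.25e-14). Against a minimum change of 1.2-fold the SLC16A3 call was lost (adjusted p = 0.128). One annotated microRNA, MIR6787, overlaps its exons on the same strand, where reads can be lost as ambiguous.

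The ratio of SLC16A3 to SLC16A1 reads was 2.94, 2.99 and 2.92 in the shYES1 libraries and 1.56, 1.52 and 1.56 in the shNT libraries. The log2 ratio averaged 1.56 ± 0.0193 in shYES1 and 0.63 ± 0.0219 in shNT (SD, n = 3 each), a difference of 0.93 (two-sided exact permutation test, p = 0.1, the smallest possible). Per length of annotated exon the order of both carriers turned. SLC16A3 at 53.6 ± 1.04 RPKM exceeded SLC16A1 at 30.7 ± 0.778 RPKM in shYES1, while SLC16A3 at 43.9 ± 0.461 RPKM lay under SLC16A1 at 48.0 ± 1.09 RPKM in shNT. In reads SLC16A3 was the higher in both groups. The order in shNT and the shares that follow therefore rest on the exon lengths used, 8995 bases for SLC16A3 and 5312 for SLC16A1. As shares of the summed RPKM of the 14 listed SLC16 genes, SLC16A3 held 57.5% in shYES1 and 43.7% in shNT, and SLC16A1 held 33.0% in shYES1 and 47.9% in shNT. The sum itself was 93.2 ± 2.79 RPKM in shYES1 and 100.3 ± 1.58 RPKM in shNT.

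BSG (ENSG00000172270.18, chromosome 19, 571277 to 583493, plus strand), the glycoprotein that escorts both carriers to the membrane, had the highest level per length of the 8 in either group, at 111 ± 2.82 RPKM in shYES1 and 110.1 ± 1.48 RPKM in shNT. Its libraries had 422, 433 and 412 CPM in shYES1 and 417, 424 and 413 CPM in shNT, and on this TMM scale the groups overlapped. The difference on the log2 scale was 0.01 (SE 0.0256, edgeR adjusted p = 0.660), with a 95% interval of -0.04 to 0.06 from the standard error. This interval holds for 1 scaling: BSG was called higher when scaled by library size only (0.11) and lower when scaled on genes without the word CCTTTC in the 3' UTR (-0.09), so its direction rests on the scaling.

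**Figure D4:**
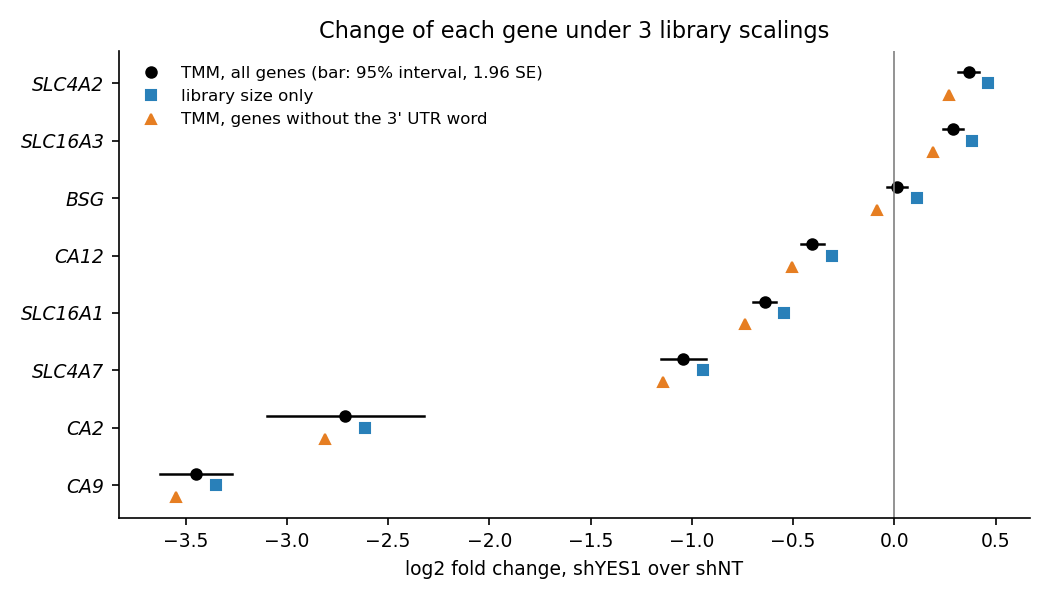
Log2 fold change of each gene, shYES1 over shNT, under 3 scalings of the libraries, with a 95% interval for the main scaling. The scalings shift all 8 genes together by about the same small step, which turns the sign of BSG and of no other gene.

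Among the other genes of lactate handling, LDHA, which makes lactate from pyruvate, averaged 1524 ± 17.3 CPM in shYES1 and 2326 ± 39.2 CPM in shNT (log2 fold change -0.61). LDHB, the subunit favouring the reverse reaction, averaged 158 ± 3.56 CPM in shYES1 and 152.4 ± 7.76 CPM in shNT and did not pass the test. With library-size scaling LDHB was called higher (0.145, edgeR adjusted p = 0.000169), and another annotated gene overlaps its exons on the same strand. Of the 17 genes in this list 8 were tested, of which 2 were higher, 3 were lower and 3 did not pass (median log2 fold change 0.03, or -0.06 when scaled on genes without CCTTTC). Beside these stand 32.5% higher and 32.8% lower among all genes. SLC16A6 averaged 2.29 ± 0.0304 CPM in shYES1 and 4.40 ± 0.315 CPM in shNT (-0.94). SLC16A13 was higher (0.73), as was SLC16A5 (0.28), a call not kept with scaling on genes that lack CCTTTC (adjusted p = 0.107). EMB, the alternative chaperone of SLC16 carriers, had at most 1 read in any library.

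The bicarbonate carriers also split. SLC4A7 (ENSG00000033867.16, chromosome 3, 27372721 to 27484420, minus strand), the sodium-bicarbonate importer, had 23.6, 21.6 and 23.9 CPM in shYES1 and 49.7, 48.1 and 45.9 CPM in shNT. Every shYES1 library was under every shNT library, with a log2 fold change of -1.04 (SE 0.0563, edgeR adjusted p = 2.40e-21). SLC4A2 (ENSG00000164889.13, chromosome 7, 151057210 to 151076527, plus strand), the chloride-bicarbonate exchanger, had 307, 312 and 314 CPM in shYES1 and 240.7, 243 and 240.02 CPM in shNT. Here every shYES1 library was above every shNT library, with a log2 fold change of 0.37 (SE 0.0267, edgeR adjusted p = 1.05e-16).

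SLC4A7 reads were 0.0769, 0.0691 and 0.0760 of SLC4A2 reads in the shYES1 libraries and 0.207, 0.198 and 0.192 in the shNT libraries. The log2 ratio averaged -3.76 ± 0.0847 in shYES1 and -2.33 ± 0.0550 in shNT (SD, n = 3 each), a difference of -1.42 (two-sided exact permutation test, p = 0.1, the smallest possible). Per length SLC4A2 was the dominant gene of its family, with 92.5% ± 0.470 of the summed RPKM of 10 listed SLC4 genes in shYES1 and 84.7% ± 0.462 in shNT. SLC4A7 held 5.40% ± 0.288 in shYES1 and 13.3% ± 0.433 in shNT.

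Of the other 14 listed bicarbonate carriers 6 were tested, and 4 were higher, 0 lower and 2 not called in shYES1 (median log2 fold change 0.54). The shares over all genes were 32.5% higher and 32.8% lower. SLC26A9, an epithelial chloride carrier, averaged 5.45 ± 0.668 CPM in shYES1 and 1.34 ± 0.446 CPM in shNT (2.07), and SLC26A11 25.9 ± 1.95 CPM in shYES1 and 16.8 ± 1.34 CPM in shNT (0.65). SLC4A8, a sodium-driven chloride-bicarbonate exchanger, had 21, 17 and 27 reads in shYES1 and 3, 1 and 2 reads in shNT (log2 fold change 3.16, SE 0.439). It passed the low-count filter only through its shYES1 libraries, so it was among the tested genes because it differed. The count of 4 higher and the median of the list include SLC4A8 and are raised by this. The fourth, SLC26A6 (0.13), lost its call when scaled on genes without CCTTTC (adjusted p = 0.595), and its exons overlap MIR6824.

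Sodium-proton exchangers move protons against sodium. Of 14 listed genes of exchangers and partners 9 were tested, with 5 higher, 1 lower and 3 not called (median log2 fold change 0.30), beside 32.5% higher among all genes. With library-size scaling 8 were higher and 1 lower, beside 5799 of all 14239 genes higher. CHP1, a cofactor of such exchangers, averaged 115 ± 3.15 CPM in shYES1 and 89.9 ± 1.98 CPM in shNT (0.36). The endosomal SLC9A9 averaged 8.37 ± 0.998 CPM in shYES1 and 3.37 ± 0.552 CPM in shNT (1.30). SLC9A7, of the Golgi, was the 1 that fell, with 31.0 ± 1.76 CPM in shYES1 and 64.6 ± 1.95 CPM in shNT (-1.06).

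**Figure D5:**
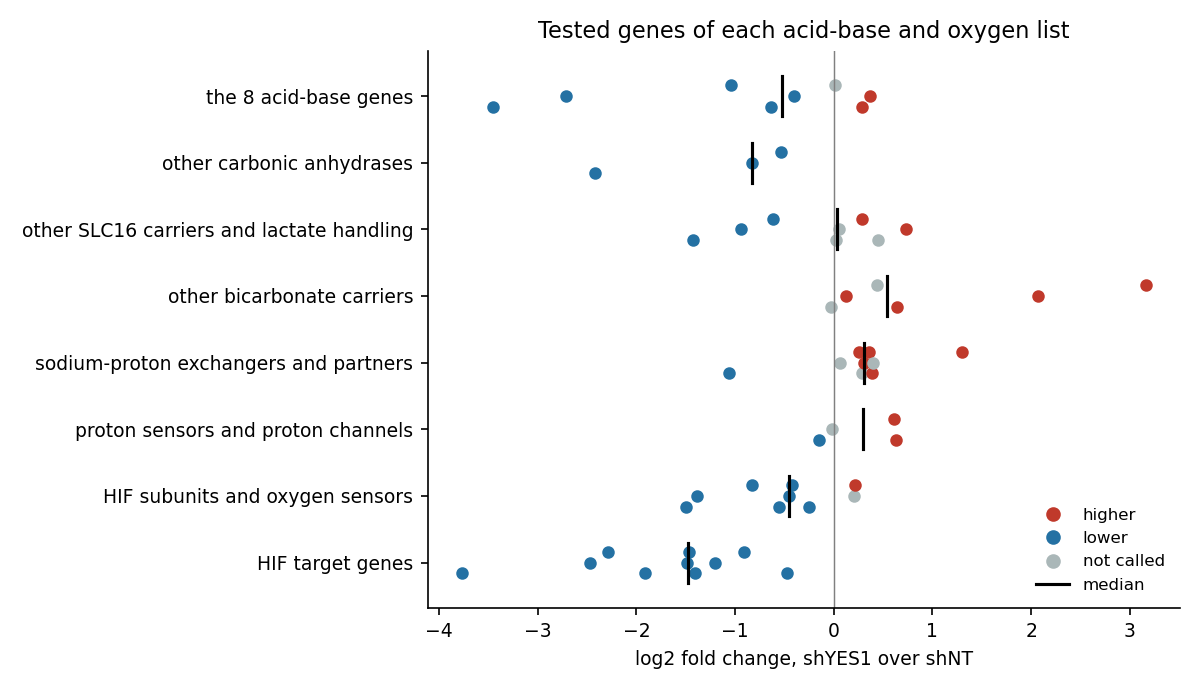
Log2 fold change, shYES1 over shNT, of every tested gene in the 8 acid-base genes and 7 related lists, coloured by call at an adjusted p under 0.05, with the median of each list as a black line (vertical jitter has no meaning). The carbonic anhydrase and HIF target points lie left of 0, the points of bicarbonate carriers lie mostly right of it, and the 8 acid-base genes span both sides.

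The RNA of the HIF system stood lower beside CA9. HIF1A, the oxygen-regulated subunit, averaged 312 ± 8.76 CPM in shYES1 and 878 ± 17.1 CPM in shNT (log2 fold change -1.49), with another annotated transcript over its exons. EPAS1, which encodes HIF-2 alpha, averaged 362 ± 15.8 CPM in shYES1 and 431 ± 15.9 CPM in shNT (-0.25). Of 9 tested HIF subunit and oxygen sensor genes 7 were lower, among them the prolyl hydroxylases EGLN3 (-1.39) and EGLN1 (-0.83), and VHL, which marks HIF for destruction, was the 1 higher (0.21). EGLN2 did not pass (0.21), though its exons overlap RAB4B-EGLN2 and another annotated gene on the same strand, which makes its level uncertain. With library-size scaling 2 genes of this list were higher and 7 lower. Over all genes tested, 32.8% were called lower and 32.5% higher. Of 10 HIF target genes listed for comparison all 10 were lower, with a median log2 fold change of -1.47. The largest falls among them were AK4 (-3.76), ADM (-2.47) and P4HA1 (-2.29). Set beside these, CA9 (-3.45) lay near the lower end of the list, CA12 (-0.41) above SLC2A1 (-0.48), the mildest of the 10, and SLC16A3 (0.29) on the other side of 0. The list was drawn up with falls in some of these genes known, so it is not independent support, and the part of HIF in the change of CA9 was not tested.

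Across the 6 libraries the profiles most like that of CA9, each gene centred on its own mean log2 CPM, were those of SAA2 (root mean square difference 0.105), HAPLN1 (0.118) and CXCL5 (0.126), among 10607 eligible genes whose median difference from CA9 was 1.68. SAA2 is an acute-phase gene with near-identical neighbours, HAPLN1 links hyaluronan to proteoglycans and CXCL5 is a chemokine. Their log2 fold changes were -3.52, -3.54 and -3.37. With 2 groups that stand apart, this likeness is mostly a likeness in the size of the change.

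The 8 genes also differ in whether their annotated 3' UTRs hold the 6-base word CCTTTC. Genes whose annotated 3' UTR holds CCTTTC, a word picked in earlier work on these same libraries, had a median log2 fold change of -0.06 (6364 genes, 42.4% called lower), against 0.10 for genes without it (5610 genes, 25.4% called lower). CA12, SLC16A1 and SLC4A7 carry the word, with 1, 2 and 2 copies in the longest annotated 3' UTR, and all 3 fell. CA2, CA9, SLC16A3, BSG and SLC4A2 do not carry it, and of these 2 fell, 2 rose and 1 did not pass. The longest annotated 3' UTRs of CA12, SLC16A1 and SLC4A7 are 4910, 2047 and 4046 bases. Those of the other 5 genes run from 163 (SLC4A2) to 1113 bases (SLC16A3), so word and length cannot be told apart here. As the word was picked on these libraries, its contrast over all genes is not independent support. The part of the word in the changes of the 8 genes was not tested.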

How the data were processed

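Per the labels, poly(A) RNA was made into stranded libraries (KAPA) from 3 shYES1 and 3 shNT samples. Per the submitters' processing notes, CASAVA 1.8.2, Trimmomatic 0.35 and STAR 2.5.1b were used with build GRCh38. Which annotation was counted on is not stated in the labels. The authors deposited raw read counts per gene, of which the reverse-strand column was used, since it held 93.5% to 94.0% of stranded gene reads. The 4 entries that name no gene held 19.8% to 20.3% of reads and were left out. Of 58219 identifiers 57437 matched a symbol, and 57881 are in GENCODE release 29 (GRCh38), the source of coordinates, exon lengths and 3' UTRs.

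Counts were analysed with edgeR 4.0.16 in R 4.3.3: filterByExpr (minimum count 10, total 15), TMM scaling, and the robust quasi-likelihood test of shYES1 against shNT over 14239 genes with Benjamini-Hochberg adjustment at 0.05. CPM and RPKM were computed from the deposited counts with TMM-scaled library sizes. A standard error is the log2 fold change divided by the square root of F, which is approximate. Read ratios had 0.5 read added to each gene and were tested by exact permutation, where 3 against 3 cannot go below p = 0.1. Intervals and reads cover these libraries and not independent molecules. In counts simulated from these libraries (14027 genes run), edgeR recovered 55.1% of changes of 0.25 (log2), 91.8% of those of 0.5 and 93.6% of those of 1. Of its calls there 2.96% were false. The simulation changed 200 genes and gave every gene the same dispersion. In the data 65.3% of genes were called, so these rates check the code and need not hold for the data.

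Genes and lists were chosen with earlier results of these data known. Named are the 8 genes, YES1, HIF1A, EPAS1, up to 3 called rises and 3 called falls per related list (the most highly expressed where fewer than 2 were called), and the 3 genes most like CA9. Some items that the rule names are not reported here. Genes outside this rule (LDHB, EMB, SLC26A6, EGLN2 and SLC2A1) were added after their values were seen. Marker genes were taken from a planned list of cell type markers, of which only some are named here. Alternatives were RLE or library-size scaling, TMM on genes lacking CCTTTC in their 3' UTRs, DESeq2 1.42.0, limma-voom (limma 3.58.1), other low-count filters, unstranded counts, a 1.2-fold minimum, a block for sample number, and dropping libraries 1 at a time. Libraries of a group differed by more than sampling noise (chi-square per degree of freedom 1.15 to 2.20).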

Additional observations from a re-analysis of the deposited data

Results flagged for a closer look

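The forward-strand column, which was not used for the comparison, could be tested at 5 of the 8 genes, and 2 of them were called higher in shYES1, beside 11.3% of the 7620 genes tested in that column. At SLC4A2 it held 165, 120 and 204 reads in shYES1 and 84, 113 and 99 reads in shNT (log2 fold change 0.40, edgeR adjusted p = 0.0219), which is 3.19% of the gene's stranded reads in shYES1 and 2.88% in shNT. At SLC16A3 it held 158, 124 and 114 reads in shYES1 and 68, 90 and 80 reads in shNT (0.43, edgeR adjusted p = 0.0204), or 1.69% in shYES1 and 1.44% in shNT. Both genes also rose on their own strand. Exons of CDK5 lie opposite 331 exonic bases of SLC4A2 and those of AC010973.2 opposite 714. Exons of CSNK1D lie opposite 482 exonic bases of SLC16A3. On their own strands CDK5 (log2 fold change 0.46) and CSNK1D (0.30) were higher in shYES1. AC010973.2 averaged 2.16 CPM in shYES1 and 1.79 CPM in shNT (0.28) and was not called. The part of these neighbours in the forward-strand reads was not tested.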

How the results depend on the processing

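Across the 16 alternatives CA2, CA9, CA12, SLC16A1, SLC4A2 and SLC4A7 kept direction and call. CA9 ranged from -3.55 to -3.35 on the log2 scale, and the 3 read ratios moved by less than the spread between libraries. BSG, not called at 0.01, was called at 0.11 with library-size scaling, turned to -0.085 (adjusted p = 0.00311) on genes without CCTTTC, and ranged from -0.0014 to 0.033 with a library left out, the lowest without shYES1 replicate 2. The cause was not tested. Against a 1.2-fold minimum SLC16A3 (0.29) lost its call, leaving 1 of the 8 genes called higher, and 5185 genes were called, 2324 higher and 2861 lower, in place of 9299, since small changes then fail by construction. The split of calls was 4623 higher and 4676 lower with TMM, 5799 and 3762 with library size, and 3497 and 5767 on genes without CCTTTC. The median log2 fold change over all genes shifted with scaling: -0.00469 (TMM), 0.092 (library size) and -0.103 (genes without CCTTTC). Same-numbered samples deviated together with correlations of only 0.0116 to 0.0252, and sample 3 of shYES1 correlated more with another number. With the sample number as a block 9297 genes were called, and the call of each of the 8 genes was as without it. CA2, with 9 to 17 reads per shYES1 library, is the gene most limited by depth.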

Other observations

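Genes that sense protons or conduct them were mostly too low to test. Of 13 listed 4 were tested, of which 2 were higher, 1 lower and 1 not called, beside 32.5% higher and 32.8% lower among all genes. PACC1, a chloride channel opened by acid, averaged 15.1 ± 0.960 CPM in shYES1 and 9.73 ± 0.952 CPM in shNT (log2 fold change 0.63), and the acid-sensing channel ASIC3 1.86 ± 0.326 CPM in shYES1 and 1.22 ± 0.218 CPM in shNT (0.61, edgeR adjusted p = 0.0281). ASIC3 lost its call when scaled on genes without CCTTTC (adjusted p = 0.0662). ASIC1 was lower, at 79.0 ± 1.87 CPM in shYES1 and 88.0 ± 2.80 CPM in shNT (-0.15), a call lost with library-size scaling (adjusted p = 0.190).

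Exons of ARHGEF39 lie opposite 643 exonic bases of CA9, and ARHGEF39 averaged 6.32 CPM in shYES1 and 14.7 CPM in shNT on its own strand (log2 fold change -1.23). Of the 7 markers of blood, endothelial and erythroid cells checked, only PECAM1 and CDH5 passed the low-count filter. PECAM1 was lower in shYES1 (log2 fold change -0.30, edgeR adjusted p = 0.00252), a call kept under each scaling, and CDH5 was not called (-0.08). The list of 7 summed to 22.4 to 22.7 CPM in shYES1 and 25.4 to 26.4 CPM in shNT, with CD3E at 0 in every library. The hepatocyte and epithelial list summed to 1086 to 1108 CPM in shYES1 and 781 to 793 CPM in shNT. Most of this sum was keratin: KRT8 at 721 and 494 CPM and KRT18 at 357 and 274 CPM in shYES1 and shNT. The hepatocyte gene SERPINA1 was lower (log2 fold change -0.18, edgeR adjusted p = 0.0388), a call lost with library-size scaling (adjusted p = 0.366). The untested genes of the list had at most 8 reads in any library.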
